A study of Mus musculus with 6 samples.

Results

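Apoptosis genes of the Bcl2 family, the caspases, their inhibitors and the death receptor pathway were followed in multipotent progenitors of mouse bone marrow, with and without an intact latexin gene. The list holds 37 genes taken by gene symbol from the platform's probe-to-gene table, of which 35 have a feature of their own on the array, among 23410 features tested. Bax and Trp53 had no matched feature and are not analysed here. Where several features carry 1 gene (Cycs, Birc2 and Cflar), the gene is represented by the feature of highest mean across the 6 arrays, with the others beside it.

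The study hybridised RNA of sorted progenitors to whole-transcript arrays, 3 from wild-type (WT) mice with intact latexin and 3 from mice labelled Lxn-/-, which lack exons 2 to 4 of latexin (Lxn) and its protein. Latexin is an inhibitor of carboxypeptidases. All mice were of the C57BL/6 strain, aged 8 to 12 weeks and described as female, with no other treatment in the labels. Each sample pooled about 100000 cells from 10 to 20 mice, sorted without lineage markers but with c-Kit, Sca-1, CD34 and the receptor written in the series text as Flt2. The labels name no promoter or Cre line that would limit the deletion to blood cells. The question was how the loss of latexin alters gene expression in these progenitors. Values are log2 expression values, changes are Lxn-/- minus WT with the standard error (SE) of limma, and group levels are means ± SD with n = 3. The precision is limited by the 6 arrays.

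The labels of the Lxn-/- arrays were only partly borne out by the data. Lxn itself read 8.56, 8.70 and 8.58 in WT and 8.03, 8.53 and 8.61 in arrays 1, 2 and 3 labelled Lxn-/-, and the position of its probes relative to the deleted exons is unknown here. The Y-linked gene Eif2s3y read 8.57 and 9.36 in Lxn-/- arrays 1 and 3, against 3.83 in array 2 and 3.68 to 3.97 in WT, which goes against the label of female mice. Results are therefore also given for arrays 1 and 3 and for array 2 apart, each against the same 3 WT arrays. For array 2 the SE and p-values hold no spread between Lxn-/- arrays, as it is assumed to vary like the WT arrays. Of the genes of the sort gate, Kit read 11.48 in Lxn-/- array 1 and 12.05 to 12.19 in the other arrays. Flt3 read between 12.45 and 12.83 and Cd34 between 13.33 and 13.48 over the 6 arrays, with Lxn-/- array 1 again the lowest. Ly6a is not analysed here. Marker lists of other cell types also differed in mean level, with no marker passing adjustment. The mean of 4 erythroid markers ran from 7.32 to 7.80 in WT and from 6.96 to 7.27 in Lxn-/-, that of 5 mast cell and basophil markers from 9.23 to 9.45 against 8.06 to 9.11, and that of 4 monocyte and macrophage markers from 8.43 to 8.86 against 8.95 to 9.04. Of the monocyte and macrophage markers 3 had higher means in Lxn-/-, and Adgre1 had a lower one (-0.23, SE 0.15). In such bulk samples, fewer cells of a type and less RNA per cell cannot be told apart.

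Apoptosis through mitochondria is governed by the Bcl2 family. Anti-apoptotic members hold the pore-forming proteins BAX and BAK in check, and BH3-only proteins sense stress and release that block. Once the outer membrane opens, cytochrome c joins APAF1 to activate caspase-9, whereas death receptors at the cell surface activate caspase-8. Blood stem and progenitor cells depend on anti-apoptotic members, MCL1 in particular, for survival.

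No member of the list passed an adjusted p of 0.05, and neither did any other feature, so the share called was 0% (limma, Benjamini-Hochberg over all 23410 features). The members' adjusted p values ran from 0.340 (Bak1 and Casp1) to 0.998 (Casp2). At an unadjusted p under 0.05 there were 4 members of 35, or 11.4%, against 14.3% of all features tested. Bak1 and Casp1 were higher there (2 of 35, against 5.06% of all features), and Bik and Hrk were lower (2 of 35, against 9.23%). The 3 values of one group lay wholly above or below those of the other for 8 members, or 22.9%, against 21.6% of all features. Of these, 3 were higher in Lxn-/- (Bak1, Birc6 and Aifm1, against 8.54% of all features), and 5 were lower (Bik, Bmf, Hrk, Fas and Fasl, against 13%). These shares lie near those of the array as a whole.

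Small upward shifts were common among the members. The mean was higher in Lxn-/- for 27 of 35 members, with a median change of 0.101 over the list, beside 42.2% of all features and a median of -0.038. The level of a feature bears on this comparison. Of the 35 members 28 lie in the brighter part of the array, above the median level, where 69.3% of all features had higher means and the median was 0.067. Among those 28 members 24 were higher, with a median of 0.114. Of the 7 dimmer members 3 were higher, beside 15.1% of all dimmer features. The median of these members was -0.042, beside -0.133 over all dimmer features. The changes were small throughout, from -0.26 (Bik) to 0.63 (Casp1), the latter a 1.55-fold difference. When the arrays were quantile-normalized again, 28 members were higher but the median was 0.042, and the count of members without overlap between groups went from 8 to 3 (Bcl2l2, Bmf and Hrk), beside 12.8% of all features. With each array centred on its own median, 30 members and 53.7% of all features were higher.

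**Figure D1:**
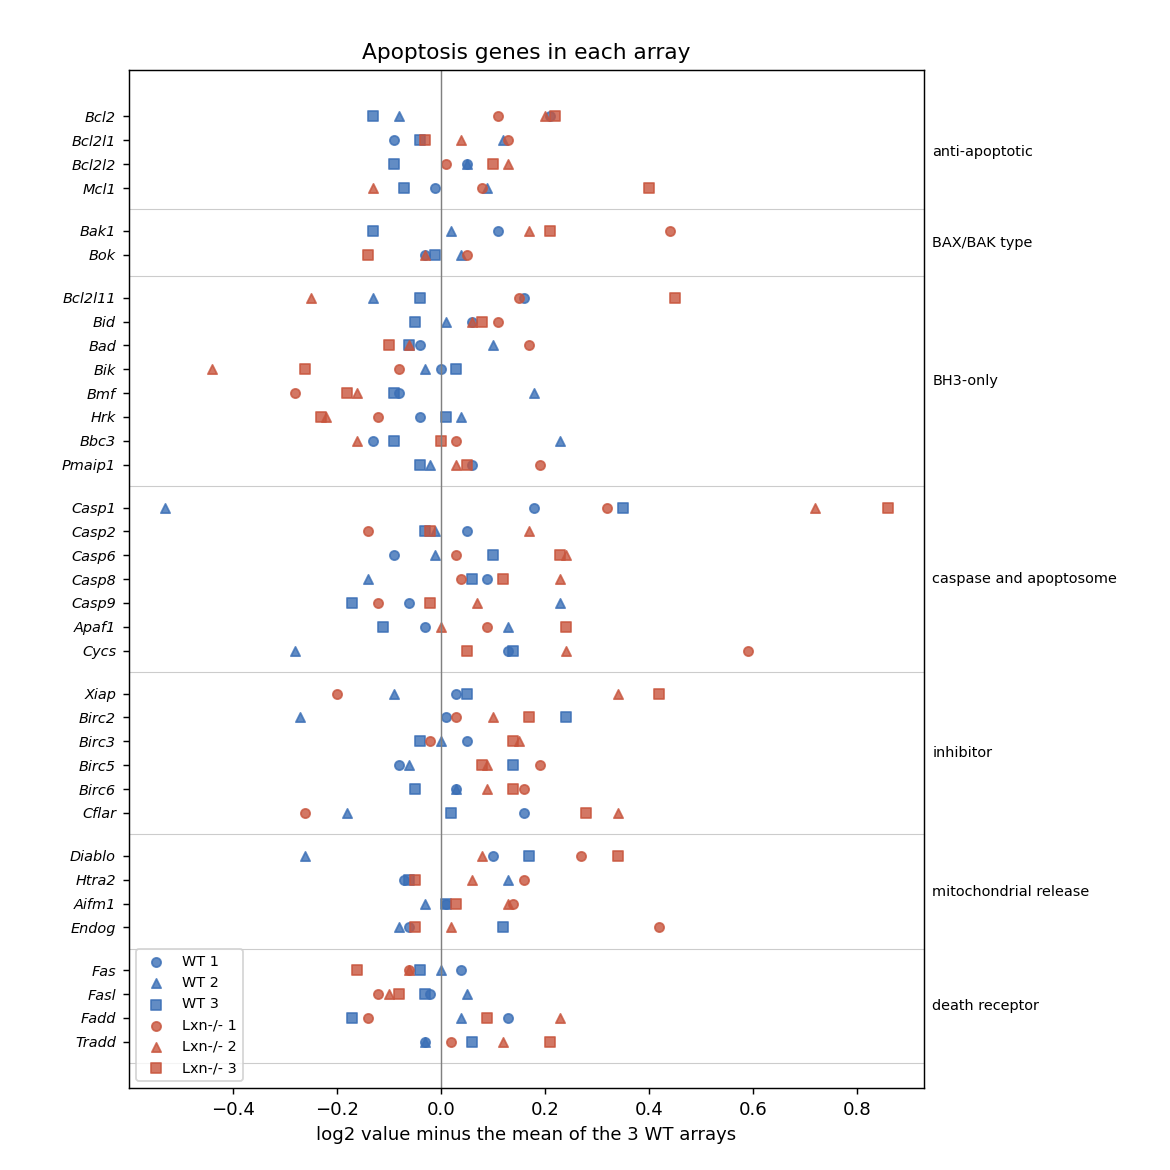
The plot of all 35 members shows each array's log2 value minus the mean of the 3 WT arrays (horizontal axis, log2 units), with genes in rows grouped by role, WT in blue and Lxn-/- in red, and marker shape for the array number. Casp1 spreads widest over the 6 arrays, and Bik, Bmf and Hrk have all red points to the left of the blue ones.

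The promoters of 3 of the 4 members with an unadjusted p under 0.05 (not Bik) are shown because these genes head the list. They are the 250 bases before the transcription start from RefSeq on GRCm38.p6, 5′ to 3′ on the gene's strand for Bak1, Hrk and Casp1. Capitals mark a GC box (GGGCGG, either strand), the core site of SP1. The CCAAT box (CCAAT) and the TATA box (TATAAA) were also searched on both strands, and neither was found in these windows. Over 32851 promoter windows of the same length, 32.7% hold a GC box, 33.8% a CCAAT box and 12.4% a TATA box.
Bak1, chr17:27028628-27028877, minus strand: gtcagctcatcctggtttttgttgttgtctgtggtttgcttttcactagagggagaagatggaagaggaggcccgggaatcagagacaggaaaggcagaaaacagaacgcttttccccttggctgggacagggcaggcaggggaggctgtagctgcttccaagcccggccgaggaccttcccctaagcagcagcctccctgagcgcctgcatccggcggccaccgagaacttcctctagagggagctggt
Hrk, chr5:118169514-118169763, plus strand: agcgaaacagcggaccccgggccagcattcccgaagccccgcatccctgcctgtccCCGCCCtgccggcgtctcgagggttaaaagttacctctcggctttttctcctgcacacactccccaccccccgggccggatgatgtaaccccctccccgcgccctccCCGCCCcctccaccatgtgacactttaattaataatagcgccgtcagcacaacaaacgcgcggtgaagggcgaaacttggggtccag
Casp1, chr9:5298267-5298516, plus strand: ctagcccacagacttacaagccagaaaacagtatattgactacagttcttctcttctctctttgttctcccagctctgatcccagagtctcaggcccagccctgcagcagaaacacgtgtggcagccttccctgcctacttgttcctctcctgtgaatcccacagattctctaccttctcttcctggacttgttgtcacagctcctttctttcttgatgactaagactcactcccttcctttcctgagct

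Hrk had 2 GC boxes and 21 CpG pairs in its window, Bak1 none and 8, and Casp1 none and 1, beside a median of 6 CpG pairs over all windows. A match describes the letters only, and no binding was measured here.

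The 4 anti-apoptotic genes had higher means in Lxn-/-, by 0.05 to 0.18, and none of them separated the groups. Bcl2, the founding member, read 12.40, 12.11 and 12.06 in WT and 12.30, 12.39 and 12.41 in Lxn-/- arrays 1, 2 and 3, a change of 0.18 (SE 0.11, adjusted p 0.430). One WT array was as high as the Lxn-/- arrays, so the groups overlapped. Mcl1 read 11.29, 11.39 and 11.23 in WT and 11.38, 11.17 and 11.70 in Lxn-/-. Array 2 was the lowest and array 3 the highest of all 6, and the groups differed by 0.11 (SE 0.13, adjusted p 0.653). Against the same WT arrays the Mcl1 change was 0.24 (SE 0.13) for arrays 1 and 3 and -0.13 (SE 0.13) for array 2. Bcl2l1, which encodes BCL-XL, differed by 0.05 (SE 0.09) and Bcl2l2, which encodes BCL-W, by 0.08 (SE 0.09), both less than the SD among WT arrays (0.11 and 0.08) or about equal to it.

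Of the pore-forming type, Bak1 was higher in every Lxn-/- array than in any WT array. It read 10.21, 10.12 and 9.97 in WT and 10.54, 10.27 and 10.31 in Lxn-/-. The change of 0.27 (SE 0.11) is 1.21-fold, with an unadjusted p of 0.0317 and an adjusted p of 0.340. Array 1 was highest, and the gap between the lowest Lxn-/- and the highest WT value was smaller than the spread within either group. The change was 0.33 (SE 0.13) for arrays 1 and 3, 0.17 (SE 0.14) for array 2, and 0.19 after quantile normalization. Bok, a related gene whose product acts at least in part outside the mitochondria, was 7.84 ± 0.03 in WT and 7.80 ± 0.09 in Lxn-/- (change -0.04, SE 0.09).

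The BH3-only genes were divided evenly, with 4 of 8 higher and a median of -0.018. Bik, Bmf and Hrk were the ones with all Lxn-/- values below all WT values. Bik, whose product acts largely from the endoplasmic reticulum, read 7.45, 7.42 and 7.48 in WT and 7.37, 7.01 and 7.19 in Lxn-/-. The WT values were tight and the Lxn-/- values spread, with array 2 lowest. It differed by -0.26 (SE 0.11, adjusted p 0.341), and by -0.17 (SE 0.11) for arrays 1 and 3 and -0.43 (SE 0.12, adjusted p 0.324) for array 2. Hrk, first described in neurons deprived of growth factor, read 8.61, 8.69 and 8.66 in WT and 8.53, 8.43 and 8.42 in Lxn-/-. All Lxn-/- values lay below all WT values, with arrays 2 and 3 nearly equal, a difference of -0.19 (SE 0.08, adjusted p 0.344). Bmf, which senses detachment from the matrix, read 8.20, 8.46 and 8.19 in WT and 8.00, 8.12 and 8.10 in Lxn-/- (-0.21, SE 0.10, adjusted p 0.365). WT array 2 was the high one, and without it the change was -0.12. Quantile normalization left Hrk at -0.24 and Bmf at -0.22, both still without overlap, and Bik at -0.14 with overlap.

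Bcl2l11, which encodes BIM, the main BH3-only protein of cytokine withdrawal in blood cells, lay on both sides of WT within the Lxn-/- group. It read 10.10, 9.81 and 9.90 in WT and 10.09, 9.69 and 10.39 in Lxn-/-, so array 2 was the lowest and array 3 the highest of all 6. The overall change was 0.12 (SE 0.17), with 0.31 (SE 0.14, adjusted p 0.440) for arrays 1 and 3 and -0.25 (SE 0.15, adjusted p 0.489) for array 2. Mcl1 showed the same order of Lxn-/- arrays. The mean of a list of 8 measured dissociation stress genes, such as Fos and Atf3, had that order too, though not each gene did. Atf3 read 11.40, 9.66 and 11.38 in Lxn-/- arrays 1, 2 and 3. The list's mean was 11.18, 10.23 and 11.41 in these arrays and 10.30 to 10.69 in WT. The part of dissociation stress in these results was not tested. The other BH3-only genes differed by less than or about their SE. Bid, which caspase-8 cleaves, differed by 0.08 (SE 0.08), Pmaip1, which encodes NOXA, by 0.09 (SE 0.09), and Bbc3, which encodes PUMA, by -0.04 (SE 0.12). Bad, which growth factor signals hold inactive, differed by 0.01 (SE 0.10).

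**Figure D2:**
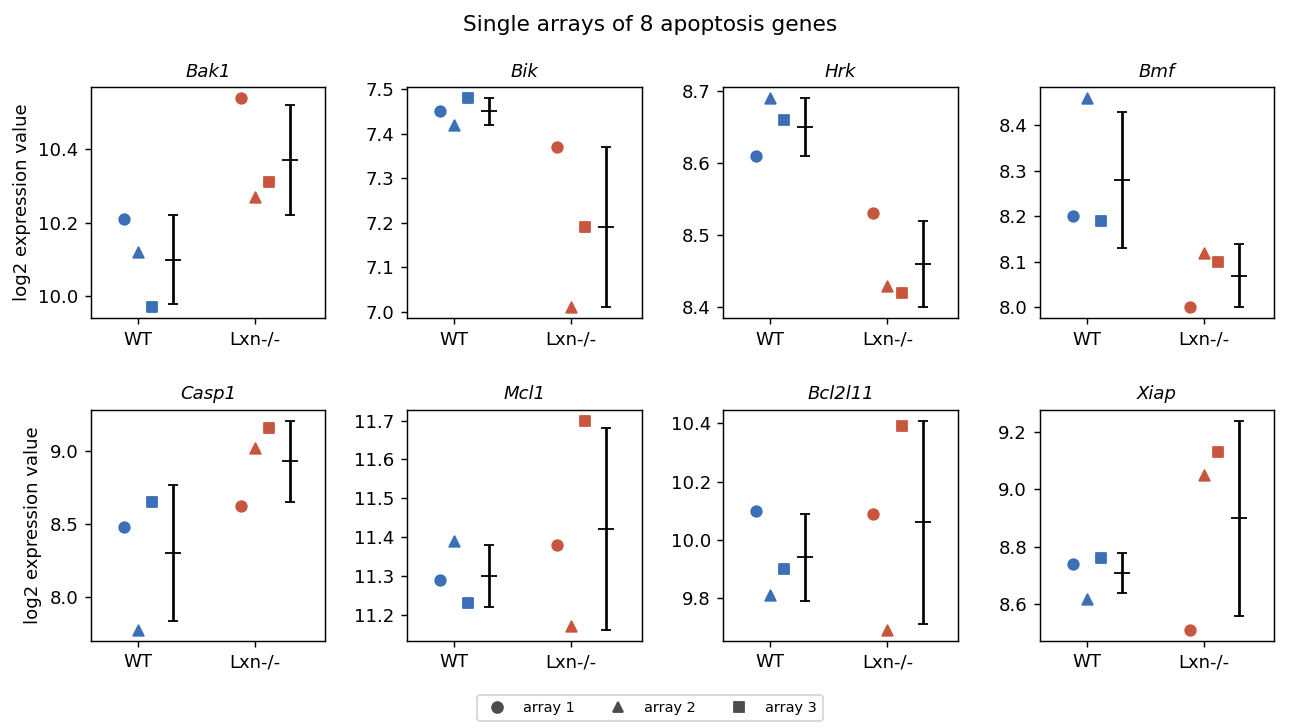
The 8 panels show the log2 expression value (vertical axis, not starting at 0) of each WT (blue) and Lxn-/- (red) array, with mean ± SD in black and marker shape for the array number. Bak1 has its Lxn-/- points above and Bik, Hrk and Bmf theirs below all WT points, whereas in Mcl1 and Bcl2l11 Lxn-/- array 2 lies lowest and array 3 highest.

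Casp1 had the largest change of the list and also the largest SE. It encodes the inflammasome caspase that processes interleukin-1 beta, a role in inflammation and pyroptosis rather than in classical apoptosis. It read 8.48, 7.77 and 8.65 in WT and 8.62, 9.02 and 9.16 in Lxn-/-. Lxn-/- array 1 lay just below WT array 3, so the groups overlapped, and WT array 2 was far below the others. The change of 0.63 (SE 0.23) had an unadjusted p of 0.0207 and an adjusted p of 0.340. Without WT array 2 it was 0.37, and against all WT arrays it was 0.59 (SE 0.24) for arrays 1 and 3 and 0.72 (SE 0.29) for array 2. WT array 2 also held the highest value of 30.2% of all features, and it was the highest of the 6 in the mean of 5 marker lists, those of erythroid (7.80), neutrophil (11.08), B (7.86), megakaryocyte (8.44) and long-term stem cells (8.71). The mean of the monocyte and macrophage markers read 8.86, 8.67 and 8.43 in WT and 8.95, 8.99 and 9.04 in Lxn-/-, with every Lxn-/- array above every WT array. Adgre1 of this list had a lower mean in Lxn-/-, against the direction of the list's mean. The part of monocytes and macrophages in the Casp1 value was not tested.

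The apoptotic caspases varied less. Casp8, the initiator at death receptors, was 12.20 ± 0.12 in WT and 12.33 ± 0.10 in Lxn-/- (0.13, SE 0.10), and Casp6, an executioner, was 9.21 ± 0.09 and 9.38 ± 0.12 (0.17, SE 0.10). Casp2 had the same mean of 11.55 in both groups, and Casp9, the initiator on the apoptosome, differed by -0.02 (SE 0.12). Apaf1, the scaffold of the apoptosome, differed by 0.11 (SE 0.10). None of these 5 had an unadjusted p under 0.05.

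Cycs, which encodes cytochrome c, has 3 features, and all of them had a higher mean in Lxn-/-. The brightest, which stands for the gene, read 12.18, 11.77 and 12.19 in WT and 12.64, 12.29 and 12.10 in Lxn-/- (0.30, SE 0.16, adjusted p 0.395). Without WT array 2 the change was 0.16, without Lxn-/- array 1 it was 0.15, and with the 3 features averaged it was 0.38 (unadjusted p 0.0161, adjusted p 0.340). A fainter one read 6.64, 6.50 and 6.75 in WT and 7.02, 7.01 and 7.33 in Lxn-/-, with no overlap, a difference of 0.49 (SE 0.12) and an unadjusted p of 0.00253, but an adjusted p of 0.340. The third differed by 0.37 (SE 0.18). On the bright feature Lxn-/- array 3 was among the WT values, and on the faint feature it was the highest of all. All 3 list the same RefSeq transcript of Cycs, and whether any also reads a near-identical copy is unknown here, so the difference among them is uncertain.

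All 6 inhibitor genes had higher means in Lxn-/-, by 0.09 to 0.19, with a median of 0.122, and none had an unadjusted p under 0.05. Xiap, which binds and blocks caspases directly, read 8.74, 8.62 and 8.76 in WT and 8.51, 9.05 and 9.13 in Lxn-/-. Arrays 2 and 3 were above and array 1 below every WT value, and the mean change was 0.19 (SE 0.15, adjusted p 0.521). Without Lxn-/- array 1 it was 0.39, with an adjusted p of 0.122. Cflar, which encodes the caspase-8 inhibitor c-FLIP, also had array 1 below and arrays 2 and 3 above every WT value on its brightest feature, with 8.77, 8.43 and 8.63 in WT and 8.35, 8.95 and 8.89 in Lxn-/- (0.12, SE 0.16). Its other 2 features differed by 0.25 (SE 0.17) and -0.04 (SE 0.15), so the direction differs among them. Xiap is on the X chromosome. Lxn-/- arrays 1 and 3, with Y-linked signal, read 8.51 and 9.13, and array 2, without it, read 9.05. The part of sex in these values was not tested.

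Birc6, a very large inhibitor that also attaches ubiquitin, was the only gene of the inhibitor group with no overlap. It read 11.05, 11.05 and 10.97 in WT and 11.18, 11.11 and 11.16 in Lxn-/-. The groups were tight and close, with a change of 0.13 (SE 0.08, adjusted p 0.449). Birc2 and Birc3, which encode the ubiquitin ligases cIAP1 and cIAP2 of tumour necrosis factor signalling, differed by 0.10 (SE 0.13) and 0.09 (SE 0.09), and the second feature of Birc2 differed by 0.03 (SE 0.11). Birc5, which encodes survivin, a mitotic protein of dividing cells, differed by 0.12 (SE 0.10).

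The 4 genes of other proteins released from mitochondria were also higher on average, by 0.06 to 0.23. Diablo, which encodes the inhibitor-binding protein SMAC, read 8.95, 8.59 and 9.02 in WT and 9.12, 8.93 and 9.19 in Lxn-/- (0.23, SE 0.13, adjusted p 0.404). WT array 2 was the lowest, as it was for Casp1, Cycs and Birc2, and without it the change was 0.10. Aifm1, an X-linked flavoprotein gene, read 9.49, 9.45 and 9.49 in WT and 9.62, 9.61 and 9.51 in Lxn-/-, with no overlap and a change of 0.10 (SE 0.08, adjusted p 0.531). Its closest values, WT 9.49 and Lxn-/- 9.51, were almost equal. Endog, a nuclease gene, was 7.99 in Lxn-/- array 1 and between 7.49 and 7.69 in the other 5 arrays (0.13, SE 0.13). Htra2, a protease gene, differed by 0.06 (SE 0.10).

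Fas and its ligand read slightly lower in Lxn-/- on features of low signal. Fas, the receptor, read 6.11, 6.07 and 6.03 in WT and 6.01, 6.01 and 5.91 in Lxn-/-, and Fasl, its ligand, read 6.00, 6.07 and 5.99 in WT and 5.90, 5.92 and 5.94 in Lxn-/-. Neither pair of groups overlapped, yet both changes were -0.10 (SE 0.08, adjusted p 0.547 and 0.521). These 2 features are the members below the 25th percentile of mean level on the array (6.50), and both changes became 0.03 after quantile normalization, so their direction depends on the scaling. The adaptor genes lay well above that level. Fadd, which links FAS to caspase-8, was 8.24 ± 0.16 in WT and 8.30 ± 0.19 in Lxn-/- (0.06, SE 0.12), and the groups overlapped. Tradd, the adaptor of the tumour necrosis factor receptor, read 8.50, 8.50 and 8.59 in WT and 8.55, 8.65 and 8.74 in Lxn-/- (0.12, SE 0.09, adjusted p 0.507). Its Lxn-/- array 1 lay below WT array 3.

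**Figure D3:**
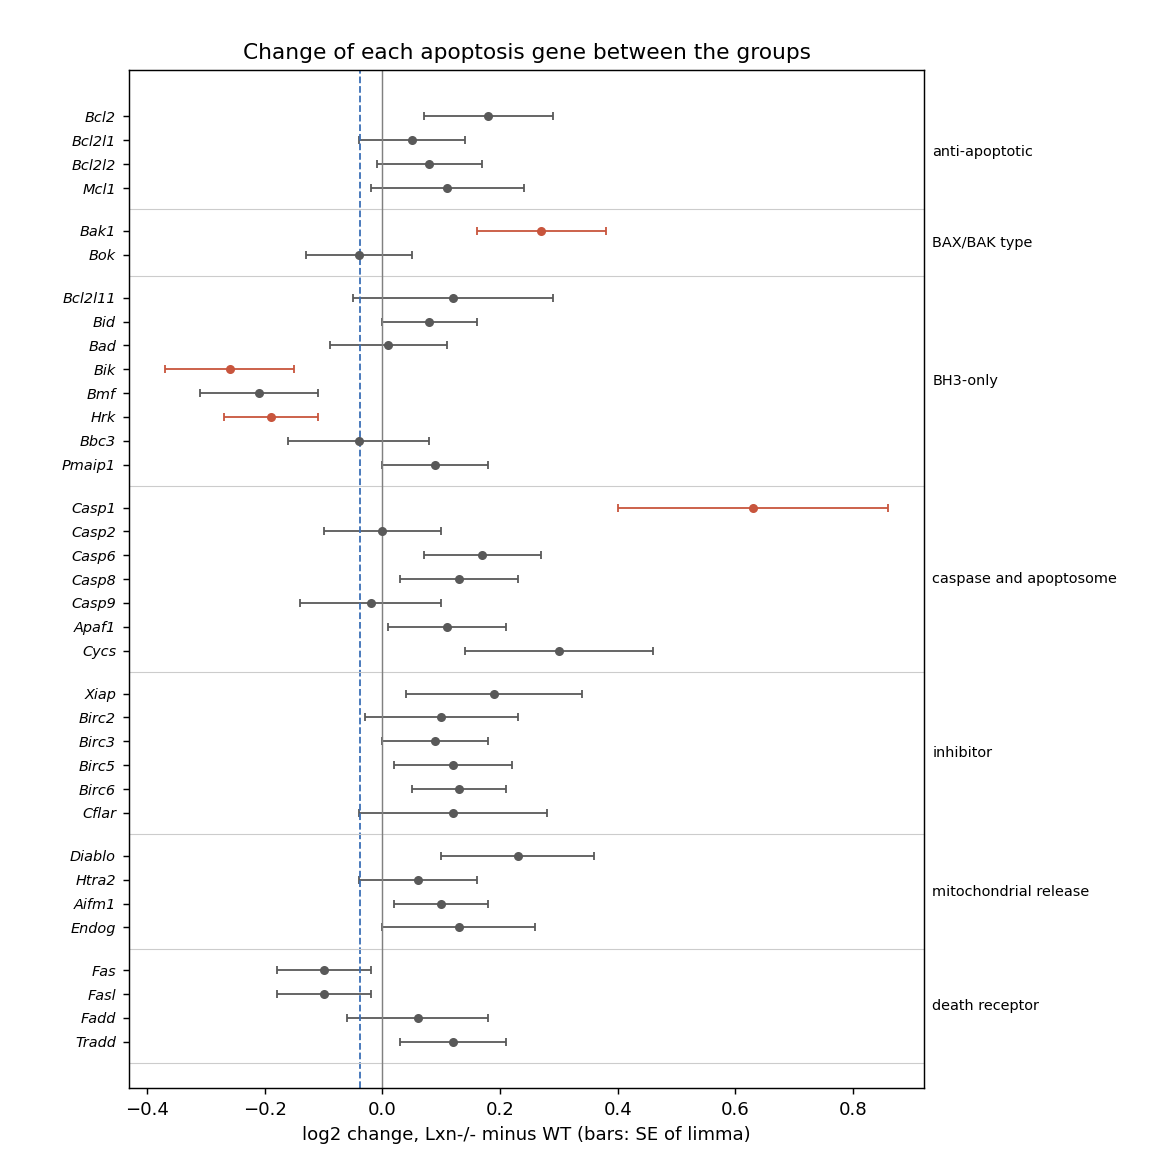
The plot of changes gives, for each of the 35 members (rows, grouped by role), the log2 change from WT to Lxn-/- (horizontal axis) with its SE as bars. Red marks the 4 members with an unadjusted p under 0.05 (Bak1, Bik, Hrk and Casp1), none of which passed after adjustment, and the dashed line is the median of all tested features at -0.038.

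Over all features the arrays labelled Lxn-/- lay further apart than the WT arrays, whereas the members had a smaller median SD in Lxn-/-. The median SD of the members was 0.111 in WT and 0.098 in Lxn-/-, beside 0.104 and 0.125 over all features. On the first principal component of all features, which holds 48.1% of the variance, the WT arrays lay at -13.6, -20.9 and -14.8 and Lxn-/- arrays 1, 2 and 3 at 29.5, -8.1 and 27.8. Array 2 was thus nearer to WT than to arrays 1 and 3. Lxn-/- array 1 held the highest value of 12 of the 35 members, beside 17.8% of all features, and WT array 3 the lowest value of 10, beside 12.8%. WT array 2 held the highest value of 30.2% of all features and of 5 members. Relative to the WT mean, the median of the list was 0.05, 0.08 and 0.08 in Lxn-/- arrays 1, 2 and 3 and between -0.04 and 0.02 in the WT arrays. All 3 Lxn-/- arrays therefore lay slightly above all WT arrays in this median. Most members lie above the median level of the array, where 69.3% of all features had higher means in Lxn-/-. The part of level, scaling or sex in the list's median was not tested.

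The split of the Lxn-/- arrays changed which genes stood out and called no member. Without array 2 the same fit called 0.619% of all features, and 0 of the 35 members, whose smallest adjusted p was 0.383 (Bak1). With array 2 alone, assumed to vary like the WT arrays, 0.0128% of features and 0 members passed, and the smallest adjusted p was 0.324 (Bik). An unadjusted p under 0.05 was reached without array 2 by 3 members (Bak1, Bcl2l11 and Casp1), or 8.57%, against 11.3% of all features, and with array 2 alone by 3 (Bik, Xiap and Casp1), against 12.8%. The widest differences between these comparisons, which share the WT arrays, were in Bcl2l11 (0.31 and -0.25) and Mcl1 (0.24 and -0.13), and Cflar had 0.01 and 0.34. The difference itself was not tested.

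**Figure D4:**
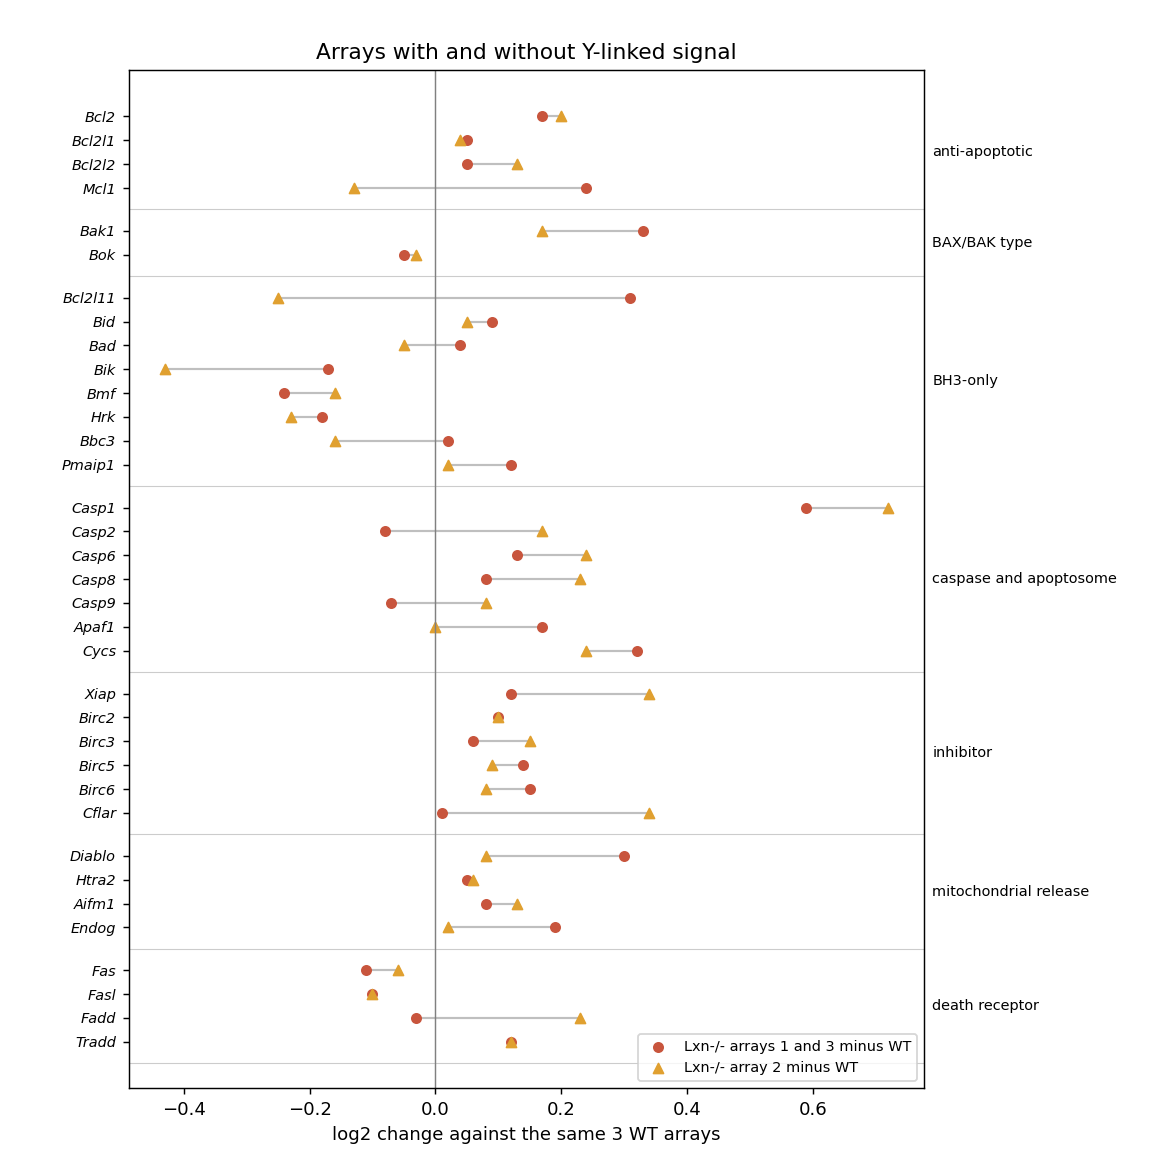
The plot of the split gives the log2 change (horizontal axis) of each member for Lxn-/- arrays 1 and 3, which have Y-linked signal (red circles), and for array 2 (yellow triangles), each against the same 3 WT arrays. Casp1, Bik, Hrk and Bmf keep their side of 0 in both, and Bcl2l11 and Mcl1 lie on opposite sides.

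Other genes of the pathway also had mostly higher means. Of 48 listed genes, 41 had a feature of their own, and the others are not analysed here. Of the 41, 30 were higher and 11 lower in Lxn-/-, with a median of 0.102, and none passed adjustment. Beside this, 42.2% of all features were higher, and 69.3% of those above the median level. The split of these genes by level was not made, so their higher means are not read as a trait of the pathway. At an unadjusted p under 0.05, 7 of the 41 were higher, against 5.06% of all features, and 2 were lower, against 9.23%. The groups did not overlap for 10 of the 41 with Lxn-/- above, against 8.54% of all features, and for 2 with Lxn-/- below, against 13%. The 6 with the smallest p had adjusted p values of 0.340. Bag3, a cochaperone gene, differed by 0.41 (SE 0.12), Bag1, another cochaperone gene, by 0.28 (SE 0.11), Casp8ap2, whose product binds caspase-8, by 0.28 (SE 0.10), and Mlkl, the effector of necroptosis, by 0.25 (SE 0.10). Birc7, an inhibitor gene, differed by -0.24 (SE 0.09) and Tnfrsf25, a death receptor gene, by -0.22 (SE 0.09).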

How the data were processed

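The log2 expression values deposited by the authors fill 1 table (35557 features, 6 arrays). They were normalized by RMA per the series text, and the submitters' processing notes name Partek 6.0. The log2 scale was inferred from the values (2.93 to 14.78). Labelling used 100 ng of total RNA per the labels. RMA is meant to bring the arrays to a common distribution, so total RNA per cell cannot be compared. Quantile normalization or centring of the tested features still moved the results. Neither its settings nor the genome build is stated in the sources used here.

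Names came from the platform's probe-to-gene table and were updated by Entrez identifier (21789 with 1 symbol, 1621 with several, left unnamed, and 12147 with none, not tested). The groups, taken from the sample titles, were tested against each other in R 4.3.3 by limma 3.58.1 (two-sided, lmFit, eBayes without trend), and p-values were adjusted (Benjamini-Hochberg) over every tested feature. The fit was tested on simulated data. The members and gene lists were chosen with earlier results of these data known. Values in every array are given for members with an unadjusted p under 0.05, without overlap between groups, or of smallest p in their role group, and of the other pathway genes up to 6 are named by smallest p. Mcl1, Bcl2l11, Xiap, Cflar and Cycs were added to these after their values were seen. Samples are separate pools, and p-values measure the spread between pools, which in Lxn-/- includes the difference in sex-linked signal. Alternatives were the replicate block, arrays left out, quantile normalization, centring, a level filter, trend with robust eBayes, array weights, all rows and the mean of a gene's features. Marker lists also covered B cell (mean 7.44 to 7.86 over the 6 arrays), T cell (6.84 to 7.18), megakaryocyte (8.08 to 8.44 in WT, 7.67 to 7.96 in Lxn-/-), stroma and endothelium (7.24 to 7.30, 7.03 to 7.22) and long-term stem cell genes (8.45 to 8.71, 8.03 to 8.51). Python 3.11.15 and matplotlib 3.10.9 drew the figures.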

Additional observations from a re-analysis of the deposited data

How the results depend on the processing

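No member passed an adjusted p of 0.05 under any of the 15 alternatives, and 21 of the 35 kept their direction in all of them. The number of features passing was 0 to 145 with 1 array left out (145 without Lxn-/- array 2), 1 with the replicate block and 3 with Lxn-/- array 2 alone. Features at an unadjusted p under 0.05 numbered 1628 (without Lxn-/- array 3) to 5541 (without Lxn-/- array 1), 1904 without WT array 2, 1812 after quantile normalization, 1356 among features above the median level (fewer features tested) and 5614 with array weights. The 4 members at that p became 0 (without WT array 2) to 6 (without Lxn-/- array 1), with 1 without WT array 3 and 2 without Lxn-/- array 3. The members' median change was 0.068 (without Lxn-/- array 3) to 0.106 with 1 array left out, 0.070 without WT array 3, 0.042 after quantile normalization and 0.157 with arrays centred. Members without overlap numbered 9 to 17 with 1 array left out (17 without Lxn-/- array 1, 14 without WT array 3) and 23 with Lxn-/- array 2 alone. Fewer arrays make a lack of overlap easier for any feature. The share over all features was not computed for these fits, so the counts are not read as a trait of the members. After quantile normalization the count was 3 of 35, or 8.57%, against 12.8% of all features. Above the median level, where fewer members lie, it was 5 of 28, or 17.9%, against 19.4% of all features there.

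Reversals were in members with changes between -0.10 and 0.13 in the fit of the deposited values of all 6 arrays. After quantile normalization Bok was 0.01, Bid -0.01, Bbc3 0.05, Casp2 -0.09, Htra2 -0.03, Fas 0.03 and Fasl 0.03. With arrays centred Bok was 0.02, Bbc3 0.01 and Casp9 0.04, and with array weights Bad was -0.02 and Casp9 0.07. With Lxn-/- array 2 alone Mcl1 was -0.13, Bcl2l11 -0.25, Bad -0.05 and Casp9 0.08. With 1 array left out the ranges were -0.03 to 0.24 for Mcl1, -0.08 to 0.01 for Bok, -0.05 to 0.31 for Bcl2l11, -0.08 to 0.06 for Bad, -0.11 to 0.07 for Bbc3, -0.08 to 0.07 for Casp2, -0.11 to 0.09 for Casp9, -0.03 to 0.23 for Birc2, -0.01 to 0.22 for Endog and -0.03 to 0.16 for Fadd. The cause was not tested. Same-numbered samples showed little correlation of their deviations from the group means (0.08, -0.01 and -0.01). With 3 arrays per group these correlations cannot exclude pairing. With the replicate block the count of members at an unadjusted p under 0.05 was 4 and the median 0.101.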
